A study of Mus musculus with 8 samples.

Results

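The genes described here are 52 mouse genes of the Wnt system, out of 21794 genes measured in mammary cells with or without interferon-α (IFNα). They were chosen by gene symbol and not by any measured value: all genes named Wnt, Fzd, Rspo1 to Rspo4, Lgr4 to Lgr6, Sfrp1 to Sfrp5 and Dkk1 to Dkk4 that a probe carried, and Lrp5, Lrp6, Axin2, Lef1, Wif1, Znrf3, Rnf43 and Nkd1. They were read by 65 of 55681 probes, with 39 genes on 1 probe and 13 on 2 probes, and no probe of theirs was empty on any array. By role they were 19 ligands, 4 R-spondins, 10 Frizzled receptors, 2 LRP co-receptors, 3 R-spondin receptors, 9 secreted inhibitors, 2 receptor-removing ligases, 2 feedback targets and 1 transcription factor. Tcf7 was not analysed here, since no named probe carried it.

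The mice were of the inbred strain FVB/N-J, wild type and virgin, and gave the mammary cells. A P4 population enriched for mammary stem cells (MaSC) and a P5 population enriched for luminal progenitors (LP) each gave 2 samples with IFNα and 2 control samples, so that the 4 groups were MaSC with IFNα, MaSC control, LP with IFNα and LP control. All groups share the mouse strain, the wild type genotype and the mammosphere culture, a suspension culture in which cells grow as spheres. IFNα, a type I interferon, was given at 1000 U/ml and cells were harvested after 8 days, and the labels name no vehicle for the controls. RNA of each sample was labelled with Cy5 and hybridised to 1 array beside a Cy3-labelled reference RNA pooled from 11 mouse cell lines. A value is therefore a log2 ratio of the sample to that reference, which compares samples for 1 gene and does not rank genes against each other. The labels do not say whether cells were sorted before or after culture, nor whether replicates came from separate mice or cultures. The p-values therefore set a difference against the spread between replicate samples, and that spread may be technical. The sample titles also give both populations the same surface phenotype, and the populations were taken from the labelled subpopulation. The mice's ages are not in the labels.

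Wnt ligands are secreted lipid-modified proteins that bring a Frizzled receptor and an LRP5 or LRP6 co-receptor together, which spares β-catenin from destruction and lets it act with LEF and TCF factors on DNA. R-spondins, bound to Lgr receptors, hold back the ligases Znrf3 and Rnf43 that remove Frizzled receptors from the surface, while Sfrp, Dkk and Wif1 proteins act outside the cell on ligands or co-receptors. In the mouse mammary gland Wnt signals are known for maintaining basal stem cells and for branching, and Wnt4 and Rspo1 pass hormone signals from luminal to basal cells. Axin2, a scaffold of the destruction complex that β-catenin itself induces, is widely used as a readout.

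Promoter sequences are shown for Fzd10 and Wnt11, which differed between the populations below, and for Axin2, the usual readout of β-catenin activity. The windows run from 250 bases before to 50 after the gene start, in RefSeq's GRCm38.p6, all on the plus strand, and capitals mark matches to a core of the TCF/LEF site, CTTTGAT, or to the looser CTTTGNA, searched on both strands, of which CTTTGAT is not a case. The Fzd10 window is chr5:128600856-128601155, the Wnt11 window chr7:98834862-98835161 and the Axin2 window chr11:108920099-108920398.
Fzd10: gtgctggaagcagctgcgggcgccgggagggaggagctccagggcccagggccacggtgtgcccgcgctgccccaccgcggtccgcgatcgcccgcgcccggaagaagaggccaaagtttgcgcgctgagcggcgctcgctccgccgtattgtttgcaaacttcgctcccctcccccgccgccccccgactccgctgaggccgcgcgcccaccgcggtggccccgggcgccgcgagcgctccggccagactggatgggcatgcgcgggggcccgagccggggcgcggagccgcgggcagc
Wnt11: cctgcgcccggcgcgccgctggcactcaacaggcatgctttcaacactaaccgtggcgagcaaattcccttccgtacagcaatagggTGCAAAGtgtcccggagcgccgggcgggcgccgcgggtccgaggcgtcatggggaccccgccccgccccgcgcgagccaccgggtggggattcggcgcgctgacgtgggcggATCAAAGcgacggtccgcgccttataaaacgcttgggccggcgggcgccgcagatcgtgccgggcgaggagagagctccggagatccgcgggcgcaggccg
Axin2: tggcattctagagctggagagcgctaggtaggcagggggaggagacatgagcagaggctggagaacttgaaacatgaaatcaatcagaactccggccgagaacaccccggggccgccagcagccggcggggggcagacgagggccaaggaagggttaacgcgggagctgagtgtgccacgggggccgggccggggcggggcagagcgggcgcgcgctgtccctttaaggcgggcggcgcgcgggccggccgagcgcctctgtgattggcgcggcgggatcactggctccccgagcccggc
This Wnt11 window, 1 of 2 that the table gives, held ATCAAAG 51 bases before the start and TGCAAAG 163 bases before it, each a match read on the opposite strand, and the letters of both motifs were absent from the Fzd10 and Axin2 windows. Promoters were matched for 34 of the 52 genes, 41 windows in all. CTTTGAT was in 2 of these 41 windows (4.88%), against 3.73% of all 32851 windows, and CTTTGNA in 6 (14.6%), against 18.1%. Neither share stood far from that of all windows, and a match describes letters only.

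1 array stood apart from the others. On LP control replicate 1 the log2 ratios of all probes had an SD of 0.63, against 1.19 to 1.26 on the other 7 arrays, and its slope on LP control replicate 2 across probes was 0.35, against 0.72 to 0.78 for the other arrays. Ratios far from 0 were thus nearer to 0 on that array, and values that it moved most are given with and without it. On every array 20.8% to 30.0% of all probes lay within 0.1 of 1 common log2 ratio near 0. A ratio at that value need not hold a measured level, and its cause was not tested. The interferon-induced genes Irf7 and Oasl2 were higher with IFNα by 5.31 and 6.67 on the log2 scale in the average of both populations (limma, adjusted p = 0.003 and 0.001), so the treatment was read in the treated groups. Probe intensities were not used, so the signal over background behind a ratio is not known.

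**Figure D1:**
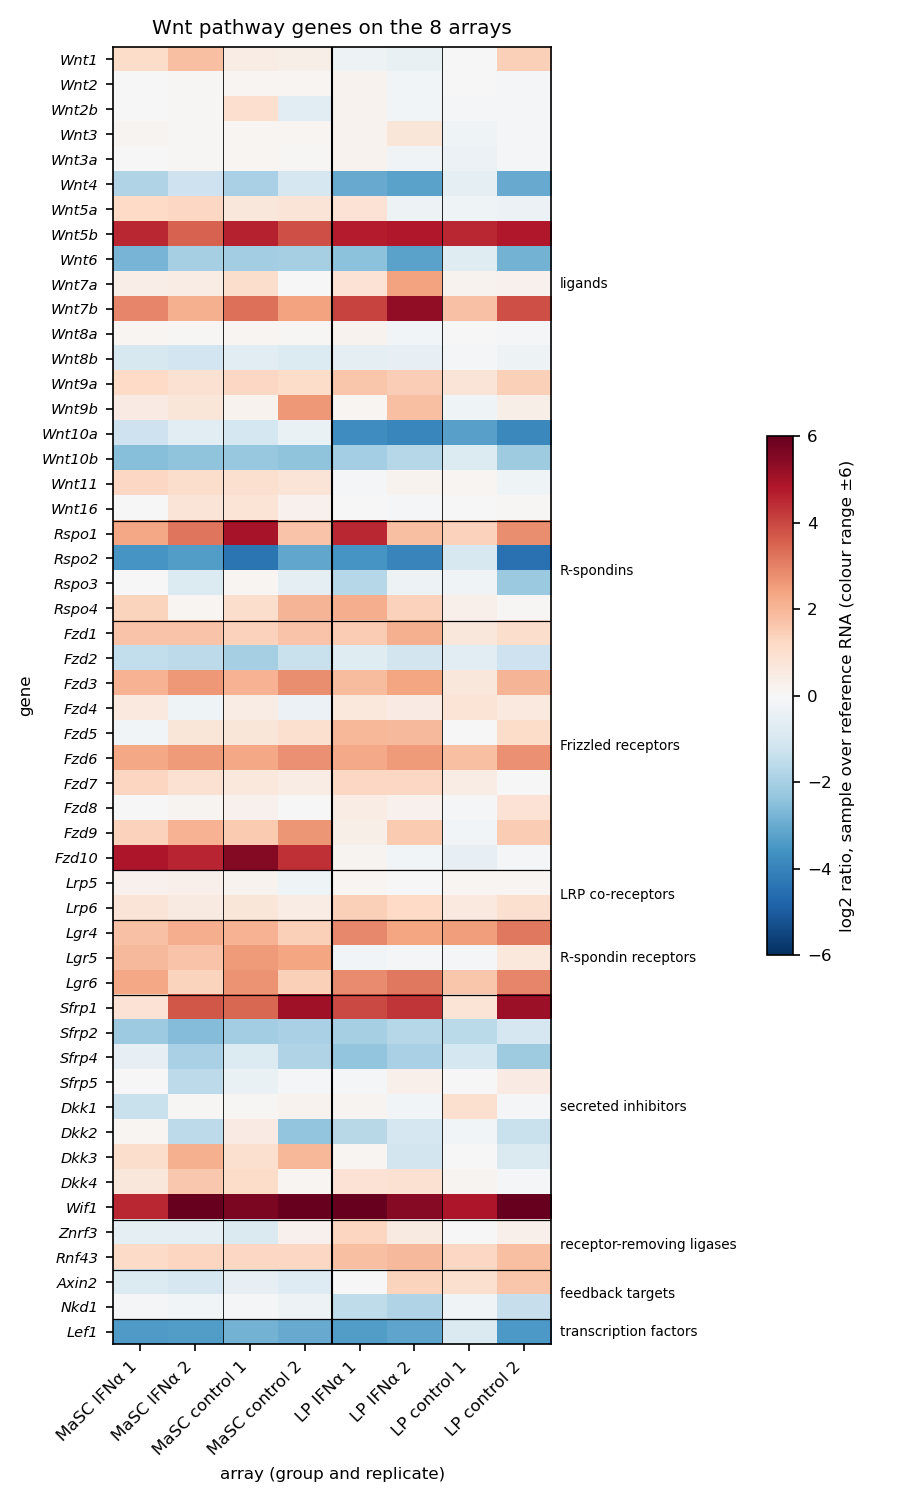
Log2 ratio of each gene (rows, grouped by role) to the reference RNA on each of the 8 arrays (columns, by group and replicate). Colours run from -6 to 6 and values beyond are drawn at the end colour. Fzd10 is red on the 4 MaSC arrays and pale on the 4 LP arrays, and Wnt6, Rspo2 and Lef1 are paler on LP control replicate 1 than on the other arrays.

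The genes that passed between the populations were a receptor, 2 ligands and an R-spondin receptor. In MaSC, relative to LP and averaged over both treatments, the deposited ratio of Fzd10 was 31.4-fold higher, that of Wnt10a 7.18-fold, of Lgr5 4.18-fold and of Wnt11 2.04-fold. On 3 of 4 LP arrays Fzd10 lay at the common ratio, so its fold is the fold of the deposited values and its level in LP may not have been measured. Of the 52 genes 4 passed the test as higher in MaSC and 0 as lower, that is 7.69% in either direction, where 3.69% of all genes passed, 2.34% as higher and 1.34% as lower. The test was limma's moderated test across all 21794 genes, with p-values adjusted by Benjamini and Hochberg and called under 0.05. At an unadjusted p under 0.05 there were 7 higher and 8 lower genes (13.5% and 15.4%), against 10.2% and 12.9% of all genes. The median log2 difference was 0.09 over the Wnt genes and -0.02 over all genes, and the median size of the difference without its sign was 0.52 and 0.30. In bulk samples such as these, fewer cells of a type and less RNA per cell cannot be told apart.

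Among the ligands, Wnt10a, a ligand known for β-catenin signalling in epithelial appendages, had log2 ratios of -1.23 and -0.69 in MaSC with IFNα, -1.06 and -0.41 in MaSC controls, -3.73 and -3.91 in LP with IFNα and -3.27 and -3.86 in LP controls. All 4 MaSC arrays stood above all 4 LP arrays, and every value was below the reference RNA. The log2 difference was 2.84 ± 0.24 (SE, n = 4 arrays a population, limma, 95% interval 2.25 to 3.44, adjusted p = 0.0059).

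Wnt11, known for β-catenin-independent signalling in cell movement, had ratios of 1.26 and 1.03 in MaSC with IFNα, 0.95 and 0.75 in MaSC controls, -0.14 and 0.20 in LP with IFNα and 0.10 and -0.27 in LP controls. The populations did not overlap, and in LP the values lay around the reference. The log2 difference was 1.02 ± 0.16 (limma, adjusted p = 0.035), and it passed in 6 of 16 alternatives, with adjusted p-values up to 0.12 in the others.

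Wnt5a, the best known ligand of β-catenin-independent signalling, was at 1.20 and 1.22 in MaSC with IFNα, 0.68 and 0.77 in MaSC controls, 0.86 and -0.30 in LP with IFNα and -0.24 and -0.33 in LP controls. LP with IFNα replicate 1 overlapped the MaSC range, and the log2 difference of 0.97 ± 0.26 did not pass (limma, adjusted p = 0.10). Without that array, which leaves 1 array in LP with IFNα, the log2 difference was 1.26. That fit removes the LP value that overlapped, so no call was based on it. Leaving out LP control replicate 1 instead gave 0.99. Wnt5a did not pass in any alternative that kept all arrays.

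Wnt4, the ligand that progesterone induces in luminal cells of the mouse gland, had ratios of -1.81 and -1.23 in MaSC with IFNα, -1.93 and -1.0 in MaSC controls, -3.03 and -3.19 in LP with IFNα and -0.55 and -3.04 in LP controls. LP control replicate 1 alone was above the MaSC arrays. The log2 difference for Wnt4 was 0.96 ± 0.57 (limma, adjusted p = 0.37), and 1.58 without that array (adjusted p = 0.073), so no difference was called with or without it.

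The other 15 ligands did not pass. All 4 MaSC arrays were below all 4 LP arrays for Wnt8b, with a log2 difference of -0.54 (limma, adjusted p = 0.085), and for Wnt10b, with -0.74 (adjusted p = 0.23). Leaving out LP control replicate 1 gave -0.40 for Wnt10b. The direction for Wnt8b depended on the probe, with -1.27 on A_51_P433887 and 0.19 on A_55_P2140913, on which the populations overlapped. Wnt7b had ratios of 2.93 and 2.11 in MaSC with IFNα, 3.32 and 2.41 in MaSC controls, 4.05 and 5.30 in LP with IFNα and 1.76 and 3.87 in LP controls. Its difference of -1.05 ± 0.57 was the lowest among ligands and did not pass (adjusted p = 0.33), and it was -1.58 for Wnt7b without LP control replicate 1 (adjusted p = 0.14). Wnt5b was high over the reference on every array, from 3.56 to 4.80. Wnt2, Wnt3a and Wnt8a stayed near 0 throughout. The probes of Wnt2 and Wnt8a lay at the common ratio on 8 arrays and that of Wnt3a on 7.

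**Figure D2:**
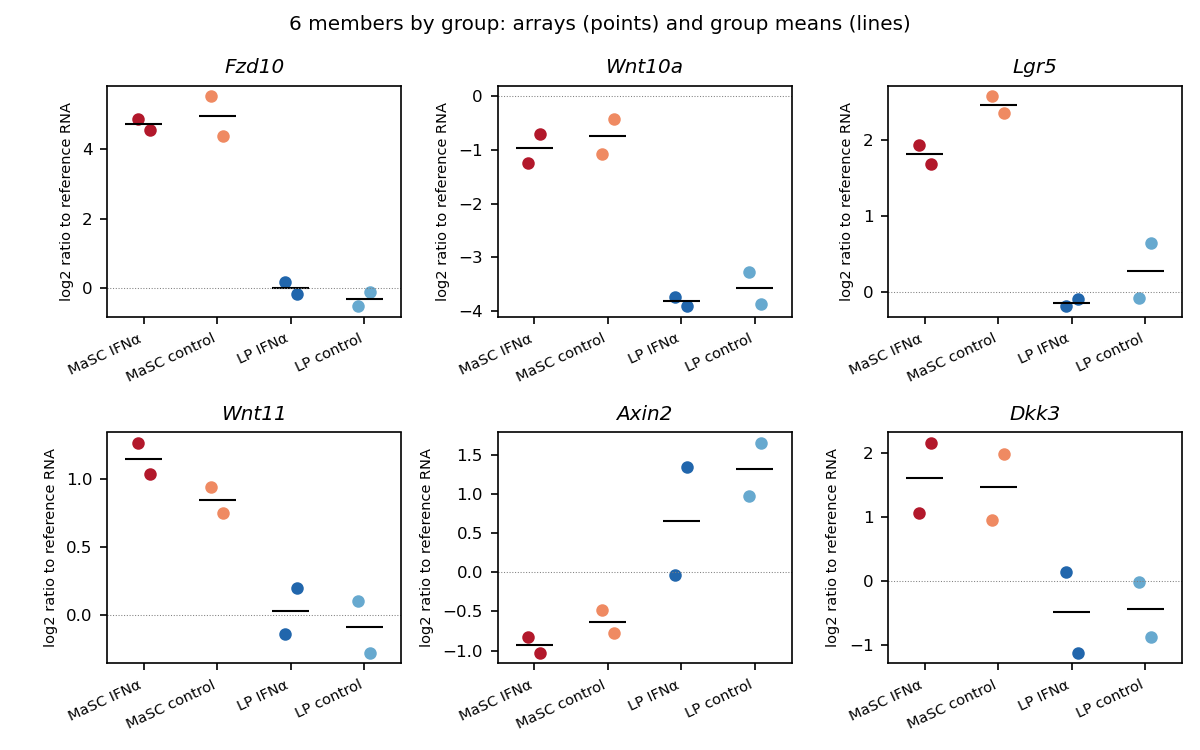
Log2 ratio to the reference RNA (y axes, scaled per gene) on each array (points) with group means (lines) for 6 genes in the 4 groups. Fzd10, Wnt10a, Lgr5, Wnt11 and Dkk3 are higher on all MaSC arrays than on all LP arrays, and Axin2 is lower on all MaSC arrays.

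None of the 4 R-spondins passed. Rspo1, which acts with Wnt4 on mouse mammary stem cells, had ratios of 2.32 and 3.19 in MaSC with IFNα, 4.96 and 1.71 in MaSC controls, 4.53 and 1.82 in LP with IFNα and 1.38 and 2.77 in LP controls. Replicates of 1 group were up to 3.25 apart on the log2 scale, and the log2 difference between populations was 0.42 ± 0.93 (limma, 95% interval -1.87 to 2.71, adjusted p = 0.82). An interval this wide leaves a several-fold difference in either direction undetected. Rspo2 was far below the reference on 7 arrays, at -3.10 to -4.46, and at -0.96 on LP control replicate 1, and Rspo3 and Rspo4 differed by 0.80 and 0.15 (adjusted p = 0.45 and 0.84).

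Among the Frizzled receptors 1 of 10 passed. Fzd10 had ratios of 4.86 and 4.56 in MaSC with IFNα, 5.51 and 4.38 in MaSC controls, 0.19 and -0.17 in LP with IFNα and -0.51 and -0.10 in LP controls. Every MaSC array stood far above every LP array. Its probe was at the common ratio on 3 of 4 LP arrays and on 0 of 4 MaSC arrays, so the LP values need not be a measured level and the size of the difference rests on them. The log2 difference was 4.97 ± 0.29 (limma, 95% interval 4.27 to 5.68, adjusted p = 0.0027), the largest among the 52 genes. It was 4.87 without LP control replicate 1 (adjusted p = 0.01).

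The log2 differences of the other Frizzled genes lay between -0.71 for Fzd5 and 1.11 for Fzd9, and that of Fzd9 was 0.68 without LP control replicate 1. Fzd2 was at -1.45 and -1.58 in MaSC with IFNα, -1.97 and -1.36 in MaSC controls, -0.74 and -1.08 in LP with IFNα and -0.62 and -1.24 in LP controls. All its MaSC values were below all its LP values, and its difference of -0.67 did not pass (limma, adjusted p = 0.15). Fzd3 and Fzd6 were above the reference on all 8 arrays, at 0.68 to 2.79 and 1.81 to 2.73.

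Neither LRP co-receptor passed. Lrp5 had ratios of 0.24 and 0.29 in MaSC with IFNα, 0.22 and -0.26 in MaSC controls, 0.10 and -0.01 in LP with IFNα and 0.10 and 0.10 in LP controls. Its log2 difference was 0.05 ± 0.15 (limma, 95% interval -0.32 to 0.42, adjusted p = 0.87). Lrp6 was at 0.76 and 0.53 in MaSC with IFNα, 0.72 and 0.42 in MaSC controls, 1.42 and 1.21 in LP with IFNα and 0.58 and 0.94 in LP controls, and its difference of -0.43 ± 0.16 did not pass (adjusted p = 0.18).

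Of the R-spondin receptors Lgr5, a marker of stem cells in several epithelia, was higher in MaSC. As a mean of its 2 probes it had ratios of 1.94 and 1.69 in MaSC with IFNα, 2.57 and 2.36 in MaSC controls, -0.18 and -0.09 in LP with IFNα and -0.07 and 0.65 in LP controls. The populations did not overlap, and the log2 difference was 2.06 ± 0.20 (limma, 95% interval 1.58 to 2.55, adjusted p = 0.0086). Lgr4 ran the other way on every array, with 1.42 to 2.18 in MaSC and 2.38 to 3.14 in LP, a difference of -0.88 that did not pass (adjusted p = 0.12). Lgr6 overlapped between the populations.

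The mean for Lgr5 joins probes that differed. A_55_P2126192 read 3.85 and 3.73 in MaSC with IFNα, 5.01 and 4.65 in MaSC controls, -0.55 and -0.03 in LP with IFNα and -0.05 and 1.39 in LP controls, a log2 difference of 4.12 ± 0.35 (limma, adjusted p = 0.008). The other Lgr5 probe lay at the common ratio on 7 of 8 arrays and gave 0.01. The size for Lgr5 therefore depends on the probe, while the call was made by the mean and by the first probe. Over the 13 genes with 2 probes, both probes gave the same sign in 9, and in 7 they were over 1 apart on the log2 scale. Across all 65 probes, 5 lay at the common ratio on at least 6 arrays (those of Wnt2, Wnt2b, Wnt3a and Wnt8a and the flat Lgr5 probe), against 10.5% of all probes.

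**Figure D3:**
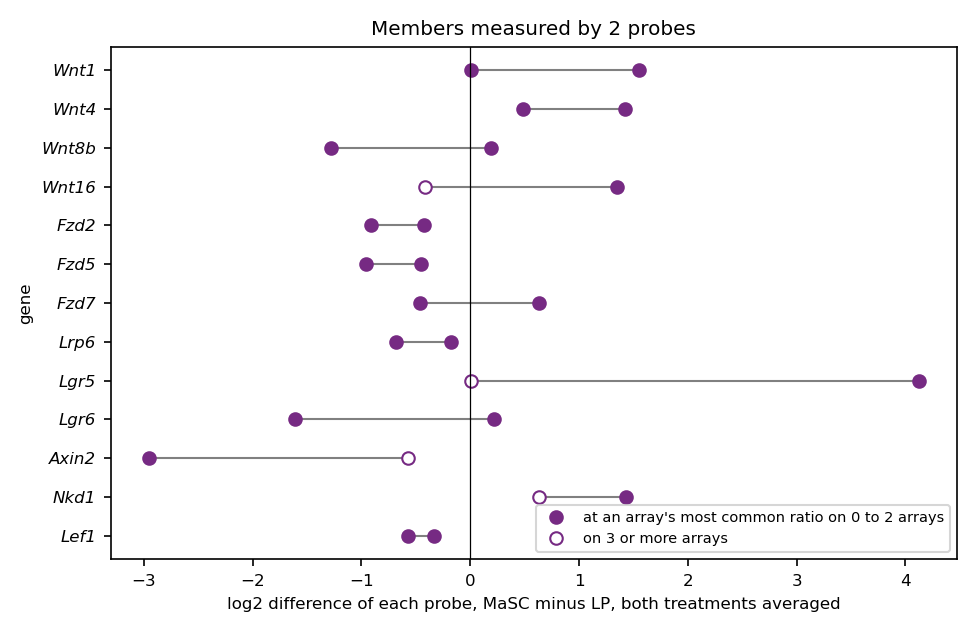
Log2 difference between MaSC and LP (x axis, both treatments averaged) for each probe of the 13 genes with 2 probes (rows), with a line joining the probes of a gene. Open points are probes at an array's most common ratio on 3 or more arrays. The probes of Lgr5 lie at 4.12 and 0.01, and those of Axin2 at -2.95 and -0.57.

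None of the 9 secreted inhibitors passed. Dkk3, a Dickkopf family member whose effect on Wnt signals varies with the cell, had ratios of 1.06 and 2.15 in MaSC with IFNα, 0.94 and 1.97 in MaSC controls, 0.14 and -1.12 in LP with IFNα and -0.01 and -0.88 in LP controls. The populations did not overlap, and 2 of the 4 LP arrays lay at the common ratio, with a log2 difference of 2.00 ± 0.45 (limma, adjusted p = 0.074). Wif1, which binds Wnt ligands outside the cell, was far above the reference on all arrays, from 4.55 to 6.74 in MaSC and from 4.85 to 7.67 in LP. Sfrp1, which also binds ligands, was at 0.87 and 3.74 in MaSC with IFNα, 3.45 and 5.08 in MaSC controls, 3.95 and 4.29 in LP with IFNα and 0.81 and 5.12 in LP controls. Replicates of Sfrp1 differed by up to 4.31 on the log2 scale, and the difference between populations was -0.26 ± 1.12 (adjusted p = 0.91) and -1.34 without LP control replicate 1.

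Neither the feedback targets nor the ligases passed. Axin2 had ratios of -0.82 and -1.02 in MaSC with IFNα, -0.48 and -0.77 in MaSC controls, -0.03 and 1.34 in LP with IFNα and 0.98 and 1.65 in LP controls. All MaSC values were below all LP values, and the log2 difference of -1.76 ± 0.34 missed the threshold (limma, 95% interval -2.59 to -0.93, adjusted p = 0.052). It was past the threshold with arrays scaled to 1 standard deviation (-1.94, adjusted p = 0.037) or quantile normalized (-1.81, adjusted p = 0.024). Its probes gave -2.95 and -0.57.

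Nkd1, which binds Dishevelled and is itself induced by Wnt signals, was at -0.14 and -0.16 in MaSC with IFNα, -0.14 and -0.31 in MaSC controls, -1.51 and -1.80 in LP with IFNα and -0.20 and -1.38 in LP controls. The log2 difference for Nkd1 was 1.03 ± 0.28 (limma, adjusted p = 0.099), opposite in sign to that of Axin2, and without LP control replicate 1 it was 1.33 and past the threshold (adjusted p = 0.027). The ligases Znrf3 and Rnf43 had differences of -0.93 (adjusted p = 0.14) and -0.47 (adjusted p = 0.17). Znrf3 had ratios of -0.52 and -0.52 in MaSC with IFNα, -0.85 and 0.25 in MaSC controls, 1.29 and 0.52 in LP with IFNα and -0.01 and 0.29 in LP controls, so the populations overlapped at LP control replicate 1.

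Lef1, the factor that carries β-catenin to DNA, was far below the reference on 7 arrays. It had ratios of -3.40 and -3.36 in MaSC with IFNα, -2.84 and -3.02 in MaSC controls, -3.36 and -3.16 in LP with IFNα and -0.85 and -3.45 in LP controls. LP control replicate 1 was the lone value near 0 and set the direction. The log2 difference for Lef1 was -0.45 with all arrays (limma, adjusted p = 0.67). It was 0.20 without LP control replicate 1 and -1.10 without LP control replicate 2.

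**Figure D4:**
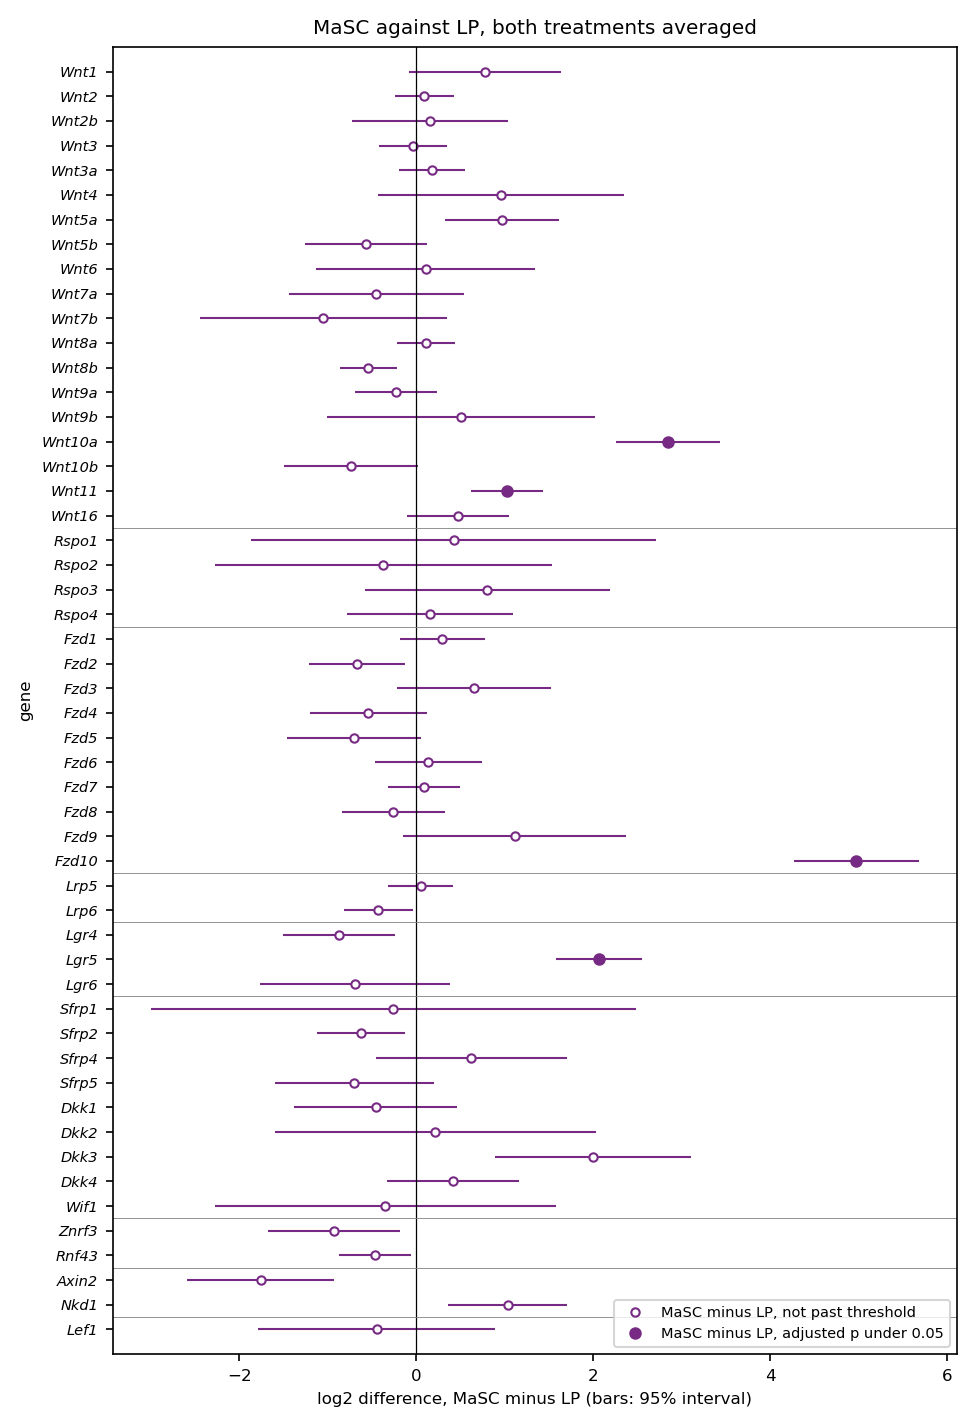
Log2 difference between MaSC and LP (x axis, both treatments averaged) for each of the 52 genes (rows, by role), with 95% intervals as bars. Filled points passed the test, and these are Fzd10, Wnt10a, Lgr5 and Wnt11, all to the right of 0.

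By rank rather than by test, all 4 MaSC arrays stood above all 4 LP arrays for 5 of the 52 genes (Wnt10a, Wnt11, Fzd10, Lgr5 and Dkk3), or 9.62%, against 7.58% of all genes. All 4 stood below for 5 (Wnt8b, Wnt10b, Fzd2, Lgr4 and Axin2), against 10.4% of all genes. Both shares were close to those over all genes.

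Within treatments the same direction was read with fewer calls. In controls 3 genes passed as higher in MaSC (5.77%), against 0.56% of all genes, and 0 as lower, against 0.0413%: Fzd10 by 5.25 ± 0.41 (limma, adjusted p = 0.012), Wnt10a by 2.83 ± 0.34 (adjusted p = 0.038) and Lgr5 by 2.18 ± 0.28 (adjusted p = 0.046). With IFNα 2 passed as higher (3.85%), against 0.454% of all genes, and 0 as lower, against 0.0505%: Fzd10 by 4.70 ± 0.41 (adjusted p = 0.022) and Wnt10a by 2.86 ± 0.34 (adjusted p = 0.039), while Lgr5 had 1.95 ± 0.28 (adjusted p = 0.061). At an unadjusted p under 0.05 the controls held 8 higher and 3 lower genes, against 6.82% and 7.01% of all genes, and with IFNα there were 8 and 7, against 7.72% and 9.18%. Of all genes, 0.601% passed in controls and 0.505% with IFNα in either direction. In a fit on the compared groups alone 0 genes passed in controls, against 0% of all genes. These calls thus needed the arrays of all 4 groups. When 1 array was left out, Fzd10 differed in controls by 4.68 to 5.81.

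Markers of several cell types, basal cells among them, moved with the population as well. For the counts of markers below, 2.34% of all genes passed as higher in MaSC. Of 10 basal markers 6 passed as higher in MaSC, with Krt5 at 3.78, Krt14 at 1.08 and Trp63 at 1.67, and the list had mean log2 ratios of 1.70 to 2.25 on MaSC arrays and -0.55 to 0.19 on LP arrays. Of 9 luminal progenitor markers 0 passed, where 1.34% of all genes passed as lower in MaSC. Krt8 (-0.88), Elf5 (0.73) and Kit (0.98) did not separate the populations. The list means were 3.43 to 3.92 on MaSC arrays, 3.94 to 4.05 in LP with IFNα and 2.70 and 3.97 in LP controls. At that share a count of 0 of 9 cannot decide the LP label, which the list did not bear out. Of 5 endothelial markers 4 passed as higher in MaSC (Cdh5, Kdr, Tek and Emcn), with list means of 2.57 to 3.12 in MaSC and -0.17 to 0.63 in LP, while Pecam1 differed by -0.08. Of 5 adipocyte markers 2 passed, Fabp4 and Adipoq (4.75 and 3.54), with list means of 1.93 to 2.85 in MaSC and -0.03 to 0.49 in LP. Of 7 fibroblast markers 3 passed (Pdgfrb, Dcn and Lum), with list means of -1.74 to -0.45 in MaSC and -3.16 to -2.56 in LP. Of 6 leukocyte markers 0 passed, with Ptprc at -0.42, and of 4 mature luminal markers 0 passed. The part that endothelial, adipocyte or fibroblast cells have in the Fzd10, Wnt10a, Lgr5 and Wnt11 differences was not tested.

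Other genes of the pathway, 51 of 52 listed measured, mostly did not separate the populations. In the average of both treatments 2 passed as higher in MaSC (3.92%, against 2.34% of all genes) and 1 as lower (1.96%, against 1.34%), with a median log2 difference of -0.06. These shares were near those over all genes. Ndp, a non-Wnt ligand of Fzd4, was at 3.61 and 3.72 in MaSC with IFNα, 2.24 and 3.74 in MaSC controls, 1.28 and 0.32 in LP with IFNα and -0.04 and 0.24 in LP controls, with a difference of 2.88 ± 0.39 (limma, adjusted p = 0.022). Sostdc1, a secreted inhibitor of Wnt and BMP signals, differed by 2.45 (adjusted p = 0.023). Its ratios were 4.57 and 4.89 in MaSC with IFNα, 4.85 and 4.58 in MaSC controls, 4.33 and 3.26 in LP with IFNα and 0.25 and 1.25 in LP controls, so in LP the arrays with IFNα were above the control arrays. Tnfrsf19, a reported β-catenin target, was lower, with a difference of -0.81 (adjusted p = 0.047). The lowest p-values in the other lists were those of Porcn, which lipidates Wnt ligands (0.79, adjusted p = 0.082), Gsk3b, a kinase of the destruction complex (-0.62, adjusted p = 0.085), Bcl9, a β-catenin partner (-1.65, adjusted p = 0.10), Dvl1 (-0.53, adjusted p = 0.14) and Tspan12, a Fzd4 partner (-0.68, adjusted p = 0.15), and none of them passed. Ctnnb1, the gene of β-catenin, was not analysed here.

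IFNα moved no Wnt gene past the test. The counts were 0 of 52 in MaSC (limma), against 0.234% of all genes, 0 in LP, against 0.33%, 0 in the average of both populations, against 0.592%, and 0 in the difference of the responses, against 0% of all genes. Nearly all genes that passed were higher with IFNα: 0.229% as higher and 0.00459% as lower in MaSC, 0.33% and 0% in LP, and 0.587% and 0.00459% in the average. At an unadjusted p under 0.05 there were 0 genes in MaSC, against 2.64% of all genes as higher and 1.90% as lower. In LP 5 were higher (9.62%) and 0 lower, against 3.73% and 3.69%, and in the average 2 were higher and 1 lower, against 3.18% and 3.37%. In the difference of the responses 1 was higher and 2 lower, against 2.46% and 1.81%. The pathway list beyond the 52 genes likewise had 0 genes past the test in each IFNα comparison. Its lowest p-values in the average were those of Sostdc1 (1.53, adjusted p = 0.27), Procr, a marker of mouse mammary stem cells (0.55, adjusted p = 0.84), the polarity gene Prickle1 (0.44, adjusted p = 0.80) and, with differences from -0.24 to 0.17, Tle3, Ryk, Porcn and Gsk3b.

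Fzd7, a Frizzled known from mouse mammary stem cells, had the lowest p of the 52 genes for IFNα in the average of both populations. Its ratios were 1.30 and 0.92 in MaSC with IFNα, against 0.65 and 0.45 in MaSC controls, and 1.23 and 1.26 in LP with IFNα, against 0.44 and 0.03 in LP controls. All 4 arrays with IFNα stood above all 4 control arrays, which held for 1 of the 52 genes (1.92%), against 1.48% of all genes, and 0 genes stood below (1.73% of all genes). The log2 difference for Fzd7 was 0.56 ± 0.23 in MaSC and 1.01 ± 0.23 in LP, and the average 0.78 ± 0.17 did not pass (limma, 95% interval 0.38 to 1.19, adjusted p = 0.26). The separation was of the mean of 2 probes: Fzd7 averaged 1.31 on A_51_P142107 and 0.26 on A_52_P552665, and on each probe the arrays with IFNα and the controls overlapped. Without LP control replicate 1 the average for Fzd7 was 0.89 (adjusted p = 0.27).

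In LP the genes with an unadjusted p under 0.05 were Fzd7, Fzd1, Fzd5, Wnt3 and Rspo4, all higher with IFNα. Fzd1 had ratios of 1.52 and 2.12 with IFNα, against 0.66 and 1.04 in LP controls, and in MaSC 1.70 and 1.71 with IFNα, against 1.38 and 1.73 in MaSC controls. Fzd5 had ratios of 1.98 and 1.93 with IFNα, against 0.04 and 1.12 in LP controls, and in MaSC -0.15 and 0.72, against 0.74 and 0.94 in MaSC controls. In both genes LP control replicate 1 was the lowest array of LP, and the adjusted p-values in LP were 0.49 and 0.55. Without that array the LP difference fell to 0.78 for Fzd1, against 0.96 with it, and to 0.84 for Fzd5, against 1.38.

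Rspo4 had ratios of 2.20 and 1.37 in LP with IFNα, against 0.29 and 0.08 in LP controls, and 1.34 and 0.11 in MaSC with IFNα, against 1.06 and 2.04 in MaSC controls. Wnt1, the first ligand found in mouse mammary tumours, had 1.10 and 1.81 in MaSC with IFNα, against 0.46 and 0.37 in MaSC controls, and -0.31 and -0.46 in LP with IFNα, against -0.03 and 1.42 in LP controls. The responses, MaSC minus LP, differed by -2.43 ± 0.77 for Rspo4, -1.94 ± 0.62 for Fzd5 and 2.12 ± 0.70 for Wnt1, the lowest p-values of that comparison, and none passed (limma, adjusted p = 0.9997 each). The fitted responses of these 3 genes had opposite signs in the populations as means over probes. For Fzd5 this held on A_51_P166456 (-1.47 in MaSC and 0.50 in LP) and not on A_66_P128199 (0.35 and 2.25), and for Wnt1 the difference of the responses was 3.97 on A_55_P2001033 and 0.27 on A_55_P2106911.

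**Figure D5:**
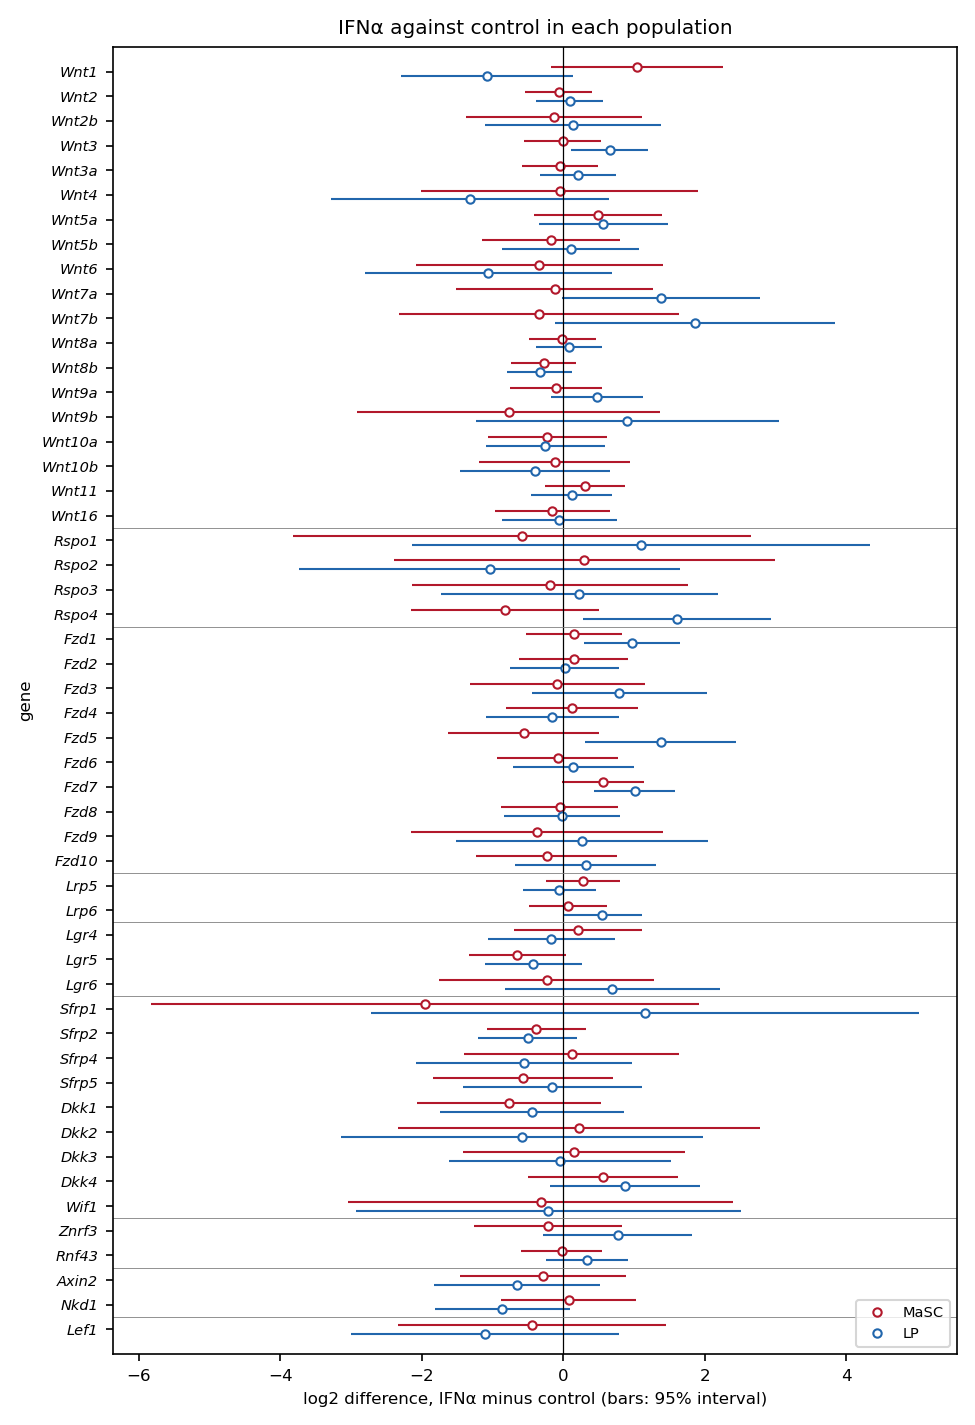
Log2 difference between IFNα and control (x axis) for each of the 52 genes (rows, by role) in MaSC (red) and in LP (blue), with 95% intervals as bars. None passed the test, Fzd7 lies right of 0 in both populations, and the widest intervals are those of Sfrp1.

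None of the genes called between populations passed a test of IFNα against control. The log2 differences for Lgr5 were -0.65 ± 0.28 in MaSC and -0.42 ± 0.28 in LP, with an average of -0.54 ± 0.20 (limma, adjusted p = 0.71), and in MaSC both control arrays were above both arrays with IFNα. These are means of 2 unlike probes. A_55_P2126192 gave -1.04 in MaSC and -0.96 in LP, the flat probe gave -0.26 and 0.12, and neither passed. Axin2 had -0.29 ± 0.48 in MaSC and -0.66 ± 0.48 in LP (adjusted p = 0.9999 and 0.81), with intervals of -1.47 to 0.88 and -1.83 to 0.51. Both intervals hold falls of more than 2-fold and only rises of less than 2-fold. A moderate response of Axin2 was thus not detectable with 2 arrays a group.

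For Lef1 the response in LP turned on 1 control array. It was -1.11 ± 0.77 with all arrays (limma, adjusted p = 0.80), 0.19 without LP control replicate 1, and -2.41 without LP control replicate 2. Wnt4 had a like spread, with -1.32 in LP with all arrays, -0.07 without LP control replicate 1 and -2.56 without LP control replicate 2. Among the markers of other cells Cdh5 was higher with IFNα, by 2.20 in the average of both populations (adjusted p = 0.038), and in LP the endothelial list had means of 0.60 to 0.63 with IFNα and -0.17 to -0.11 in controls.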

How the data were processed

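The authors deposited 1 log ratio per probe and array, used here as log2 of Cy5 (sample) over Cy3 (reference RNA). The submitters' processing notes name Agilent Feature Extraction 11.0. No source gives the base of the log: base 2 was assumed, since some ratios are larger than base 10 could give, and the dyes gave the direction. Normalization and centring are not given in the sources used here; array medians ran from -0.14 to 0.15, and no further normalization was applied.

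Probes with 1 symbol in the platform annotation and a value on all 8 arrays (30398 of 55681) were averaged by symbol to 21794 genes. limma 3.58.1 in R 4.3.3 was fitted with 1 mean per group over all arrays (4 residual and 1.98 prior degrees of freedom), two-sided, with Benjamini-Hochberg adjustment over all genes in each of 7 comparisons. The procedure was tested on simulated data with 1 spread per gene on all arrays, which did not imitate the narrow LP control replicate 1. Alternatives were leaving out each array, a replicate block, scaling, centring, quantile normalization, array weights, single probes, kept empty values, robust moderation and fits on the compared groups alone. Precision is limited by 2 arrays a group.

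The genes, pathway lists and marker lists were chosen with earlier results of these data known. Values on every array were given for genes that passed, the 3 lowest p-values of each comparison, the widest gene of each role and a short set of named genes; others were named after their values were seen.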

Additional observations from a re-analysis of the deposited data

How the results depend on the processing

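In MaSC against LP averaged over treatments, the alternatives on all 8 arrays gave 3 to 5 genes. The shares of all genes that passed in them were 2.65% to 5.08%. Leaving out 1 array leaves 1 array in a group. In those fits Fzd10 differed by 4.69 to 5.26 and Wnt10a by 2.68 to 3.01. Lgr5 differed by 1.9 to 2.2 there and Wnt11 by 0.93 to 1.12. Fzd10 (log2 difference 4.66 to 5.26) and Wnt10a (2.68 to 3.36) passed in 16 of 16 alternatives, Lgr5 in 14 and Wnt11 in 6. Single probes counted a gene by its probe with the lowest p. For Lgr5 that was A_55_P2126192 with 4.12, and the flat probe gave 0.01. In controls the count of 3 genes became 1 with array weights (0.367% of all genes), scaled arrays (0.72%) and the replicate block (0.537%). The gene left was Fzd10. Lgr5 was also lost with centred arrays (0.514%) and robust moderation (0.5%), and Wnt10a with single probes (0.365%). The count was 0 in a fit on the compared groups alone, where 0% of all genes passed. Without 1 array Fzd10 differed in controls by 4.68 to 5.81, Wnt10a by 2.5 to 3.2 and Lgr5 by 1.82 to 2.54. With IFNα the count of 2 became 1 with scaled arrays (0.624% of all genes) and quantile normalization (0.67%). Single probes (0.263%) and the replicate block (0.248%) also gave 1. In each of these Fzd10 was left and Wnt10a did not pass. The compared groups alone gave 0, where 0% of all genes passed. Without 1 array Fzd10 differed with IFNα by 4.52 to 4.88 and Wnt10a by 2.59 to 3.13. For IFNα against control the counts were 0 in every alternative on all 8 arrays. Without LP control replicate 2, which leaves 1 LP control array, the LP difference of Lef1 was further below 0, as given above. The replicate numbers were not treated as pairs: the labels tie them to no shared animal or day, and replicate deviations correlated at -0.02 to 0.31 over 6 pairs of groups. Where calls were lost, the cause was not tested, except that the fit on the compared groups alone has fewer arrays. Centring or scaling moved the median difference of all genes between the populations to -0.10 and -0.11, against -0.02, and no called gene changed sign. Signal over background, unknown here, and 2 arrays a group limit what could be detected.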
